A study of Phascolarctos cinereus with 3 samples.

Results

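The regions described here are 1151 CENP-A peaks that lie on 60 long scaffolds of the koala (Phascolarctos cinereus) assembly phaCin_unsw_v4.1, on which the CREST list has no peak. They are 47.7% of the 2412 CENP-A peaks and hold 25.4% of the bases in CENP-A peaks. Chromatin immunoprecipitation followed by sequencing had been run on koala endometrium, the lining of the uterus. There was 1 library from a custom rabbit antibody to tammar wallaby (Macropus eugenii) CENP-A and 1 from CREST serum, here a human anti-centromere IgG. An input library was also made and is not analysed here. The labels name no animal, age or reproductive stage, and they report no measurable DNA from the control antibodies.

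The peaks were chosen by measured values, namely the positions in both peak lists. A scaffold entered when its known extent, the largest end of any peak of either list on it, was at least 1 Mb and when it carried no CREST peak. The known extent is a lower bound of the scaffold's length. Of 102 scaffolds of this size, 60 carried CENP-A peaks only, 31 carried peaks of both antibodies and 11 carried CREST peaks only. The 60 are called CREST-free scaffolds below, which means that the CREST list holds no peak on them, not that CREST antigen was absent. Whether a list leaves out whole scaffolds is unknown here, and this could change which scaffolds count as CREST-free. Scaf00001, scaf00003 and scaf00005 carried 71, 54 and 50 CENP-A peaks. The scaffolds numbered between them are not among the long scaffolds with CENP-A peaks, and many other low numbers are missing there as well. The 3 shortest that entered were scaf00298 (1372970 bp, 2 peaks), scaf00332 (1601949 bp, 6 peaks) and scaf00326 (1628578 bp, 2 peaks). The 3 longest without a CREST peak that fell outside the limit were scaf00378 (776237 bp, 2 peaks), scaf00335 (716509 bp, 3 peaks) and scaf00412 (500282 bp, 4 peaks). The limit therefore falls in a stretch of sizes in which no CREST-free scaffold is found.

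CENP-A is the histone H3 variant that replaces H3 in the nucleosomes of the active centromere, where it recruits the proteins on which the kinetochore is built. The chaperone HJURP deposits it, and in many mammals it sits on long arrays of satellite repeats. Outside centromeres CENP-A is normally sparse, although human cells that overproduce it can carry it along chromosome arms. CREST sera recognise several centromere proteins, among them CENP-B, which binds a satellite motif, and often CENP-A and CENP-C.

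Since each antibody had 1 library, the values below describe those libraries. No test and no p-value was computed, and the 95% intervals cover counting error alone, with each peak taken as independent. The number of reads behind the peaks is unknown, and the lists used here give no peak height, so a peak is described by its place and its width.

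The CENP-A peaks of the CREST-free scaffolds were narrow. Widths ran from 253 to 2990 bp, with a median of 359 bp (95% interval 344 to 382 bp) and a mean of 543 ± 340 bp (SD, n = 1151 peaks). The lowest 10% measured 262 bp or less, so the distribution began at a sharp lower edge. This edge is not particular to the set: CENP-A peaks on long scaffolds with CREST peaks have the same minimum of 253 bp. Of the 1151 peaks, 702 were under 500 bp, or 61.0% (Wilson interval 58.1 to 63.8%). Bins of 50 bp show where they gathered: 370 peaks were at least 250 and under 300 bp wide, and 183 were at least 300 and under 350 bp. These bins alone held 48.0% of the set. The counts then declined to 24 peaks in the bin from 550 to 600 bp.

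Above this decline the widths formed a long, flat shoulder in place of a steady fall. Each 50 bp bin from 600 to 1100 bp held between 27 and 44 peaks, and the fullest was that of 850 to 900 bp with 44. The shoulder from 650 to 1100 bp, upper limit not included, took in 286 peaks (24.8%, Wilson interval 22.4 to 27.4%). Beyond the shoulder the counts tapered: bins held 23 peaks from 1100 bp, 15 from 1150 bp and 7 from 1200 bp. The next bin held 11. Peaks of at least 1000 bp numbered 141 (12.3%) and were spread over 47 of the 60 scaffolds. The limits of the shoulder were chosen after the widths had been seen.

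**Figure D1:**
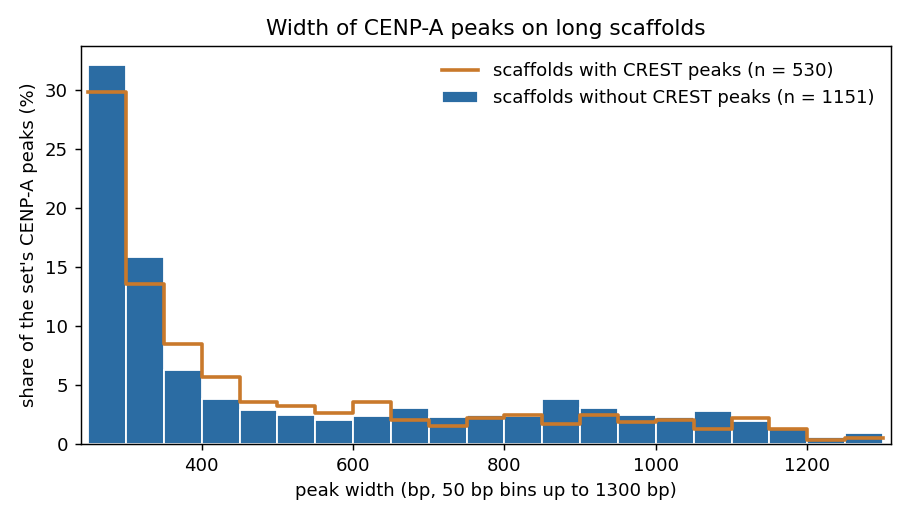
Share of CENP-A peaks (%) in 50 bp bins of width (bp), up to 1300 bp, for the 1151 peaks on CREST-free scaffolds (bars) and the 530 on long scaffolds with CREST peaks (line). Both sets are highest in the first bin, and from 850 to 950 bp the bars stand above the line.

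The shoulder took a larger share of the peaks on the longer CREST-free scaffolds, a difference that was not tested. On the 29 scaffolds of 10 Mb or more, 226 of 855 peaks (26.4%, Wilson interval 23.6 to 29.5%) were 650 to 1100 bp wide, and on the 31 of 1 to 10 Mb 60 of 296 (20.3%, 16.1 to 25.2%). These intervals overlap. The median width was 369 bp (346 to 407 bp) on the former and 342.5 bp (319 to 378 bp) on the latter, with overlapping intervals as well. Among the 24 scaffolds with at least 20 peaks, the median width ran from 308 bp on scaf00055 to 620 bp on scaf00020. Scaf00020 had 11 of 30 peaks under 500 bp (36.7%, Wilson interval 21.9 to 54.5%). At the other end, 23 of 29 peaks on scaf00030 were under 500 bp (79.3%, 61.6 to 90.2%). The intervals of these scaffolds, picked as the extremes of 24, do not overlap.

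Peak numbers followed scaffold size. The 60 known extents summed to 689 Mb (median 9.04 Mb, range 1.37 to 38.2 Mb) and held 1.67 peaks per Mb (exact Poisson interval 1.58 to 1.77), or 1 peak for each 598 kb. Peaks covered 0.0908% of that length, 625520 bp in all. The number of peaks per scaffold ran from 2 to 54 with a median of 16, and Pearson's r between number and known extent was 0.94 over the 60 scaffolds. Part of that relation is built in, because each known extent ends at a peak. Density itself had almost no relation to known extent (r = -0.10). Both correlations are across scaffolds of 1 library, which are not replicates.

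The scaffolds with the most peaks were scaf00003 (54 peaks), scaf00007 (51), scaf00005 (50), scaf00008 (48) and scaf00025 (44). Their densities were 1.41, 1.75, 1.40, 1.77 and 2.02 peaks per Mb, all with Poisson intervals that include the 1.67 of the whole set. Large numbers on these scaffolds went with large size.

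Density per scaffold had a mean of 1.71 ± 0.55 peaks per Mb (SD, n = 60 scaffolds) and a range of 0.735 to 3.75. The highest was on scaf00332, with 6 peaks in 1.60 Mb and a wide Poisson interval of 1.37 to 8.15 peaks per Mb. It was followed by scaf00067, where 35 peaks in 13.1 Mb gave 2.67 peaks per Mb (1.86 to 3.71). Scaf00158 (2.61), scaf00128 (2.56) and scaf00097 (2.56) completed the densest 5. Of these 5, picked as the densest of 60, scaf00067 and scaf00097 had intervals above the density of the whole set. That of scaf00097 (1.673 to 3.75) began only just above 1.671, and those of the other 3 took in this value.

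The sparsest was scaf00096, with 8 peaks in 10.9 Mb, a density of 0.735 (0.317 to 1.45). Scaf00288 (0.757, 2 peaks), scaf00104 (0.785, 8 peaks), scaf00260 (0.834, 3 peaks) and scaf00196 (0.949, 5 peaks) came next. The intervals of scaf00096 and scaf00104 (0.339 to 1.55) end below the density of the whole set. Among the 24 scaffolds with at least 20 peaks, the range was 1.25 to 2.67 peaks per Mb. A minimum number of peaks takes out sparse scaffolds by itself, so the higher low end says little. On the 29 scaffolds of 10 Mb or more the range was 0.735 to 2.67 peaks per Mb.

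**Figure D2:**
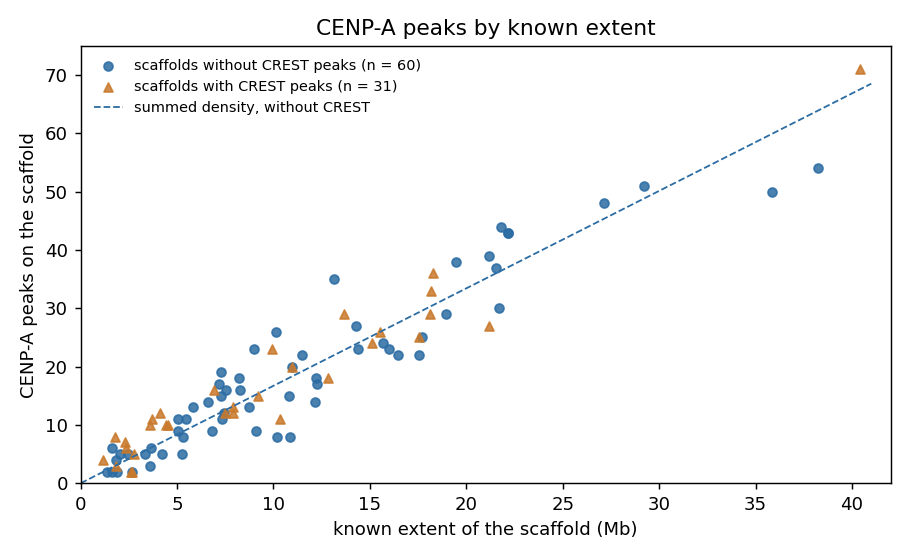
Number of CENP-A peaks on each scaffold against its known extent (Mb), for 60 CREST-free scaffolds (circles) and 31 long scaffolds with CREST peaks (triangles); the dashed line is 1.67 peaks per Mb. Both kinds of scaffold lie along the line.

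Peaks were found along the whole known extent of the scaffolds. With the last listed peak of each scaffold left out, since it sets the known extent, 1091 peaks fell into 10 equal bins from the scaffold's start to its known extent. The bins held between 99 and 120 peaks each. Their median widths ran from 324 to 390.5 bp. No peak began within 10 kb of a scaffold's start. Such stretches are short beside the 598 kb of known extent per peak, so this absence says little.

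Windows of 1 Mb show the same peaks at a finer scale. Of 661 windows that lay wholly inside a known extent, 127 (19.2%) held no peak, 210 held 1, 190 held 2 and 93 held 3. Windows with 4, 5 and 6 peaks numbered 24, 13 and 4. The mean was 1.59 and the variance 1.48 peaks per window, so the variance was 0.931 of the mean. The fullest windows, with 6 peaks each, began at position 23000001 on scaf00007, at 9000001 on scaf00067 and at 2000001 on scaf00097 and scaf00158.

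**Figure D3:**
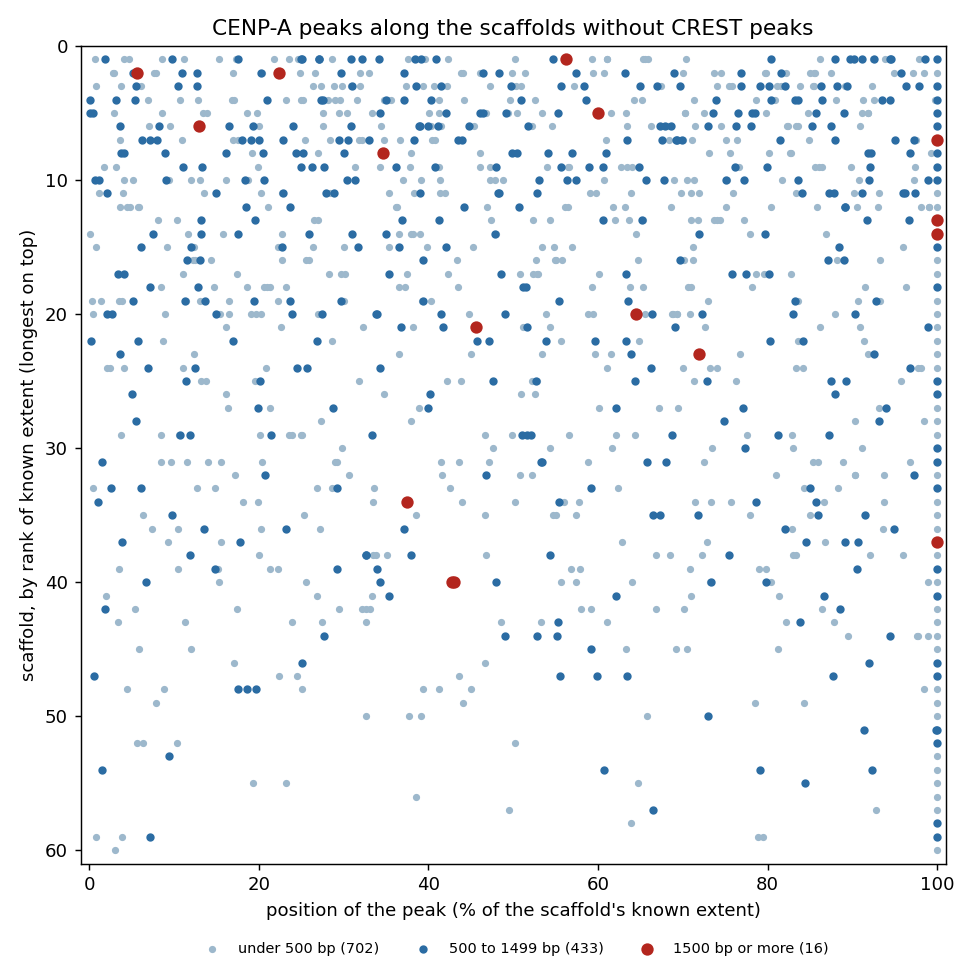
Position of each of the 1151 peaks (% of the scaffold's known extent), 1 row per CREST-free scaffold ordered by known extent, coloured by width. The column of points at 100% is built in, since the last peak sets the known extent, and 4 of the 16 peaks of at least 1500 bp stand in it.

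Neighbouring peaks were far apart. The 1091 gaps between neighbours had a median of 437 kb (95% interval 397 to 465 kb), a mean of 597 kb and an SD of 602 kb. The middle 50% of gaps ran from 171 to 826 kb. The SD over the mean, the coefficient of variation, was 1.01. Evenly spaced peaks would give a value near 0, so no regular spacing was visible. On the 24 scaffolds with at least 20 peaks it ran from 0.808 to 1.31.

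Most peaks stood alone. The nearest other CENP-A peak was over 100 kb away for 808 of the 1151 (70.2%, Wilson interval 67.5 to 72.8%) and over 500 kb away for 254 (22.1%, 19.8 to 24.6%). The most isolated peak lay on scaf00045 (15662966 to 15663442, 477 bp), with 2.69 Mb to its neighbour on the one side where the list has a peak.

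The longest stretches without a peak were close in size and lay on 5 scaffolds. They measured 3.98 Mb on scaf00007 (between peaks at 3713239 to 3714394 and 7699216 to 7699529) and 3.85 Mb on scaf00096 (5722001 to 5722367 and 9574442 to 9575513). Stretches of 3.85 Mb on scaf00003, 3.77 Mb on scaf00104 and 3.68 Mb on scaf00025 followed. Scaf00096 and scaf00104 are also among the sparsest scaffolds, while scaf00003, scaf00007 and scaf00025 are among those with the most peaks. Whether reads could be placed in these stretches is unknown here.

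The shortest gaps, at the other end, were just over 1 kb. The smallest was 1015 bp on scaf00117, between a peak of 309 bp (7894332 to 7894640) and one of 261 bp (7895656 to 7895916). The next were 1031 bp on scaf00021 (15564942 to 15565238 and 15566270 to 15566612), 1413 bp on scaf00025, 1423 bp on scaf00030 and 1454 bp on scaf00013. No gap under 1 kb is found, and whether closer peaks were merged in the peak calls is unknown here.

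Clusters were few and small. Joining neighbours at most 10 kb apart gave 26 clusters with 53 peaks (4.60% of all, Wilson interval 3.54 to 5.97%) on 22 scaffolds. Of these, 25 were pairs, and 4 scaffolds held 2 clusters each. Their lengths ran from 1585 to 12268 bp, with a median of 6736 bp. In 27 neighbouring pairs within 10 kb, both peaks were under 500 bp in 7, both were at least 500 bp in 8, and 12 had 1 of each. Close neighbours therefore included every mix of narrow and wide peaks.

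The only cluster of 3 lay on scaf00141 and held 2 of the 16 peaks of at least 1500 bp. Its peaks measured 1997 bp (3064325 to 3066321), 1031 bp (3071405 to 3072435) and 1709 bp (3074884 to 3076592), with gaps of 5083 and 2448 bp. Together they covered 4737 bp, or 38.6% of 12268 bp. The next peak on that scaffold was 356376 bp further on. The same scaffold also held a pair at 5238031 to 5245510, whose wider peak measured 1185 bp.

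**Figure D4:**
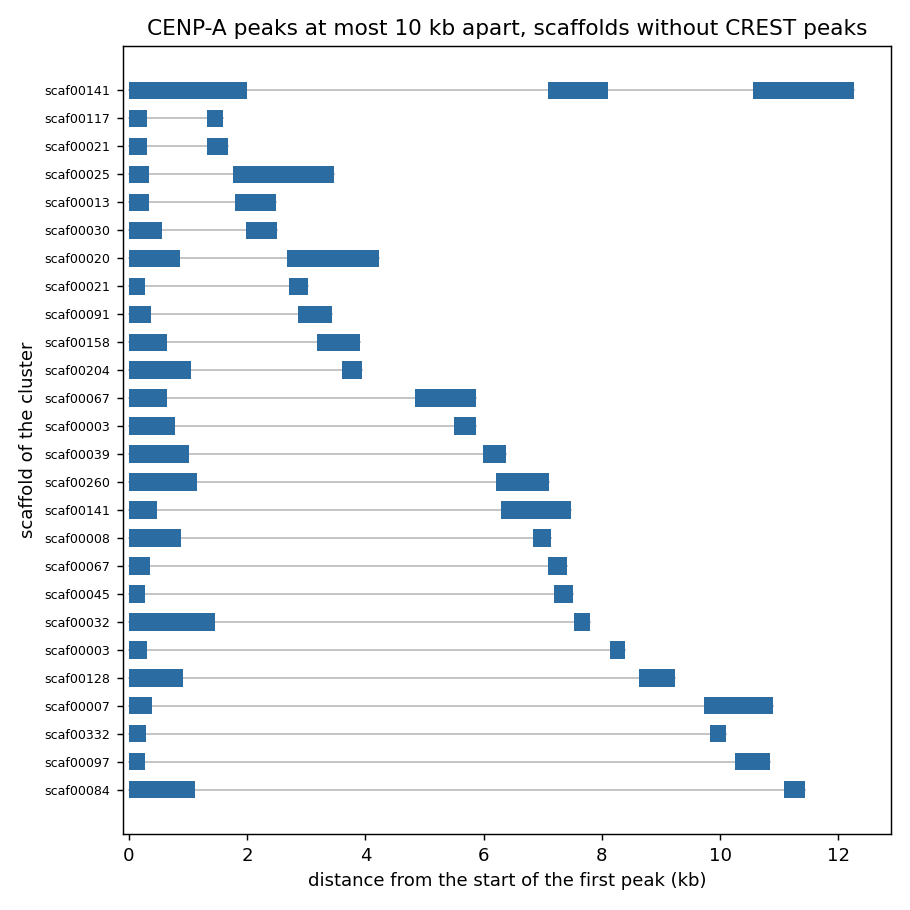
The 26 clusters of CREST-free scaffolds, 1 row each and labelled by scaffold, drawn to scale from the start of their first peak (kb), with peaks as blocks. The cluster of 3 on scaf00141 is on top, and pairs are ordered by the distance between the starts of their peaks.

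The share of wide peaks was higher in clusters than among isolated peaks, but this rests in part on scaf00141. Of the 53 with a neighbour within 10 kb, 13 were at least 1000 bp wide (24.5%, Wilson interval 14.9 to 37.6%), against 128 of the other 1098 (11.7%, 9.89 to 13.7%). The median widths were 514 bp (346 to 724 bp) and 356 bp (341 to 378 bp), and these intervals overlap. The 13 wide peaks include those of 1997, 1031, 1709 and 1185 bp in the clusters of scaf00141. Peaks of the same cluster may not be independent, although the intervals take them as such. Whether the shares would stay apart without scaf00141 was not tested. Beyond 10 kb the distance made little difference: the share of at least 1000 bp lay between 7.88% and 14.6% in the 5 classes of greater distance.

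Wide peaks were rare. Only 16 of the 1151 (1.39%, Wilson interval 0.857 to 2.25%) reached 1500 bp, on 14 scaffolds, 3 reached 2000 bp and none reached 3000 bp. The widest, 2990 bp, lay on scaf00164 (7351214 to 7354203). It was followed by 2147 bp on scaf00035 (17535573 to 17537719) and 2122 bp on scaf00021 (13310217 to 13312338). The 1997 bp peak of the scaf00141 cluster was next. None of the 3 widest lay in a cluster: their nearest neighbours were 682, 2288 and 327 kb away.

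The remaining members of the widest 10 measured 1754 bp on scaf00070 (8757454 to 8759207), 1720 bp on scaf00003 (21512217 to 21513936), 1715 bp on scaf00025 (21775632 to 21777346) and 1709 bp on scaf00141. They ended with 1676 bp on scaf00005 (8041963 to 8043638) and 1653 bp on scaf00039 (17704814 to 17706466). Of these 10, 3 lay in clusters, on scaf00141 and scaf00025.

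Several of the widest peaks were the last that the list gives on their scaffold. This was so for 4 of the 10 widest, on scaf00164, scaf00035, scaf00025 and scaf00039, whereas last peaks make up 5.21% of the set. Counting all peaks of at least 1500 bp, 4 of 60 last peaks (6.67%, Wilson interval 2.62 to 15.9%) were that wide, against 12 of 1031 peaks between the first and the last (1.16%, 0.667 to 2.02%) and 0 of 60 first peaks. These shares rest on 4 peaks, and the comparison was made after the widest peaks had been seen. The median of last peaks, 402.5 bp (321 to 718 bp), had an interval that overlaps that of the peaks between, 357 bp (343 to 382 bp). How far the sequence runs beyond a last peak is unknown here, so their distance from the scaffold's end was not measured. The same order was found on long scaffolds with CREST peaks. There 5 of 31 last CENP-A peaks (16.1%, 7.09 to 32.6%) reached 1500 bp, against 4.06% (2.61 to 6.25%) of those between.

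Set beside the 530 CENP-A peaks of the 31 long scaffolds that do carry CREST peaks, the CREST-free set differed little in density and median width when all scaffolds were pooled. The other scaffolds held 1.77 peaks per Mb (Poisson interval 1.62 to 1.93), with a median width of 387.5 bp (357 to 422 bp) and 61.1% under 500 bp. All 3 intervals overlap those of the CREST-free set. On scaffolds of 10 Mb or more the densities were 1.63 (CREST-free) and 1.65 peaks per Mb, and the median widths 369 and 355 bp. On scaffolds of 1 to 10 Mb the densities were 1.82 (1.61 to 2.03) and 2.08 peaks per Mb (1.79 to 2.40). There the median widths were 342.5 bp (319 to 378 bp) on CREST-free scaffolds and 439 bp (402 to 541 bp) on the others, and these intervals do not overlap. The 439 bp includes CENP-A peaks that overlap CREST peaks. Without those the median was 404 bp (352 to 465 bp), an interval that overlaps that of the CREST-free scaffolds. No test was made of any of these differences, since both sets come from 1 CENP-A library.

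The sets parted in the upper tail of width and in the share of short gaps. Peaks of at least 2000 bp numbered 3 of 1151 on CREST-free scaffolds (0.261%, Wilson interval 0.0887 to 0.764%) and 16 of 530 on the others (3.02%, 1.87 to 4.85%). The widest measured 2990 bp and 8861 bp. Gaps of at most 10 kb were 27 of 1091 (2.47%, 1.71 to 3.58%) on CREST-free scaffolds and 37 of 499 (7.41%, 5.43 to 10.1%) on the others. Within 50 kb the shares were 8.07% (6.59 to 9.83%) and 13.8% (11.1 to 17.1%), still with intervals that do not overlap. They were 17.0% and 21.0% within 100 kb, with overlapping intervals, and 81.1% and 80.8% within 1 Mb. The excess of short gaps lay on scaffolds of 1 to 10 Mb, with 3.40% on CREST-free scaffolds against 17.3% on the others, whose Wilson intervals do not overlap. On scaffolds of 10 Mb or more the values were 2.18% and 2.67%, with overlapping intervals.

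**Figure D5:**
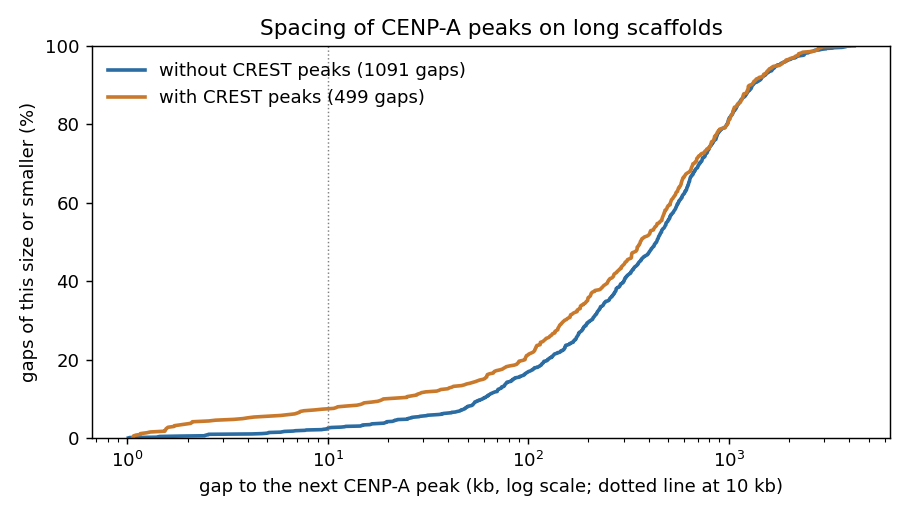
Cumulative share (%) of gaps between neighbouring CENP-A peaks by size (kb, log scale), for 1091 gaps on CREST-free scaffolds and 499 on long scaffolds with CREST peaks. At the dotted line of 10 kb the curves stand at 2.47% and 7.41%, and they meet towards 1 Mb.

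Clusters differed in make-up and in place as well. On the scaffolds with CREST peaks there were 19 clusters, 11 of them with at least 3 peaks and up to 5, whereas 1 of the 26 on CREST-free scaffolds had 3. On those scaffolds 10 of the 19 clusters (52.6%, Wilson interval 31.7 to 72.7%) took in the last CENP-A peak of the scaffold. On CREST-free scaffolds 2 of 26 did (7.69%, 2.14 to 24.1%), the pairs on scaf00025 (21773873 to 21777346) and scaf00260 (3591581 to 3598679). The bin nearest the end of the known extent held 13.8% of the peaks on scaffolds with CREST, the highest of their 10 bins, and 9.35% on CREST-free ones.

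Peaks that share bases with a CREST peak are removed from the CREST-free set by the choice of scaffolds. Without them, the contrast in wide peaks was smaller. The contrast in the pooled share of gaps of at most 10 kb changed direction, with 2.47% in the CREST-free set against 1.83% and overlapping intervals. The other 468 CENP-A peaks on scaffolds with CREST were 355 bp wide at the median (336 to 386 bp), close to the 359 bp of the CREST-free set. By size of scaffold the order differed. Their median was 404 bp against 342.5 bp (CREST-free) at 1 to 10 Mb. At 10 Mb or more it was 343 bp (327 to 361 bp) against 369 bp (346 to 407 bp). Intervals overlap in both classes. Among the 468 peaks 2 (0.427%, Wilson interval 0.117 to 1.54%) reached 2000 bp, and the widest was 2322 bp. Measured between these peaks alone, 8 of 438 gaps (1.83%, 0.928 to 3.56%) were at most 10 kb, and the median gap was 455 kb (377 to 511 kb), against 437 kb. By size of scaffold, such gaps at 1 to 10 Mb were 8 of 123 (6.50%, 3.33 to 12.3%). This was above the 3.40% (9 of 265) of the CREST-free set, but with overlapping intervals. At 10 Mb or more the order was reversed, with 0 of 315 (0 to 1.20%) against 18 of 826 (2.18%, 1.38 to 3.42%) on CREST-free scaffolds. There the intervals do not overlap, and the difference was not tested. The 468 peaks formed 6 clusters that took in 14 of them. Of the 6 clusters, 2 had 3 peaks, against 1 of 26 in the CREST-free set, and 1 took in a last peak.

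The share of widths in the shoulder was also set beside that of the 468 peaks. From 650 to 1100 bp lay 24.8% (22.44 to 27.4%) of the CREST-free peaks, and 18.6% (15.3 to 22.36%) of the 468. These intervals are apart but almost touch. Counted from 600 bp, the shares were 27.3% (24.8 to 29.9%) and 22.0% (18.5 to 26.0%), whose intervals overlap, so the separation of the intervals depends on the lower limit. On scaffolds of 10 Mb or more these shares were 26.4% (23.6 to 29.5%) and 16.8% (13.2 to 21.3%). On scaffolds of 1 to 10 Mb the order was not the same, with 20.3% (16.1 to 25.2%) and 22.7% (16.6 to 30.3%), intervals that overlap. The limits of the shoulder were set on these widths, and neither the difference nor its change with scaffold size was tested.

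CENP-A peaks without CREST peaks on the same scaffold were not narrow everywhere. On 49 scaffolds of smaller known extent that also lack a CREST peak, the median of 158 CENP-A peaks was 732.5 bp (625 to 949 bp), and 35.4% were under 500 bp, against 359 bp and 61.0% on the long CREST-free scaffolds. Scaffold size and other properties of those scaffolds cannot be told apart here.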

How the data were processed

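The data were 2 deposited lists of broad peaks, 1 per antibody and library, with scaffold, start and end in bp and no height, p-value or q-value. Trimmomatic 0.36, Bowtie2 and MACS2 2.0.10.20131216 are named in the submitters' processing notes. The sources used here do not give parameters, thresholds, the background of the peak calls or the treatment of reads that fit several places. Ambiguous placement of such reads can move the number and width of peaks in repeats. Starts were read as counting from 0 and are printed counting from 1. No interval was listed more than 1 time among the chosen peaks.

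Peaks overlapped when they shared at least 1 bp, a gap ran from the end of a peak to the start of the next, and clusters joined gaps of at most 10 kb. Intervals are 95%: Wilson for shares, exact Poisson for densities, binomial ranks for medians. Python 3.11.15, numpy 2.4.6, pandas 2.3.3, scipy 1.17.1 and matplotlib 3.10.9 were used, and the gap and cluster steps were tested on simulated data. The overlap step was tested there only on peaks that do overlap. The text names the 10 widest peaks, 5 scaffolds with the most peaks and the 5 densest and sparsest, clusters of at least 3, the 5 longest and shortest gaps, and 3 scaffolds on each side of the size limit. Extremes named beyond these were chosen after their values were seen. The peaks and these rules were chosen with earlier results of these data known. The alternatives were other limits of extent, width and distance, other lengths and left-out scaffolds. The koala gene table at hand describes another assembly, so genes and sequences were not used here.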

Additional observations from a re-analysis of the deposited data

How the results depend on the processing

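No leave-one-out over libraries was possible, since each antibody has 1, and an absent peak shows little while the depth is unknown. Extent limits of 500 kb or 10 Mb, scaffolds with at least 10 peaks, and leaving out scaf00003, which has the most, kept all 8 summary values inside their intervals, or within 1.5 times for counts. Taking the span from first to last peak as length kept density and coverage inside theirs. A minimum width changed most values. With peaks of at least 350 bp the median width was 760.5 bp, 24.9% were under 500 bp, density was 0.870 peaks per Mb, coverage 0.0677%, the median gap 779437 bp, and 27 peaks lay in clusters. With at least 500 bp the median width was 874 bp, density 0.659 peaks per Mb, coverage 0.0594%, the median gap 973594 bp, and 15 peaks lay in clusters. The share of gaps within 10 kb stayed inside its interval under both. Distances of 5, 50 and 100 kb gave 1.28%, 8.07% and 17.0% of gaps and 28, 173 and 343 clustered peaks. Width limits of 1500 and 1000 bp gave 16 and 141 wide peaks, and 54.3% of peaks were under 400 bp. Leaving out the last listed peak of each scaffold, chosen after the data had been seen, left 1 peak of at least 2000 bp and a coverage of 0.0851%. The share of gaps within 10 kb was -4.94 percentage points on CREST-free scaffolds relative to those with CREST. In splits also chosen afterwards it was -13.9 points at 1 to 10 Mb, -0.491 points at 10 Mb or more, and 0.648 points, the reverse direction, without the CENP-A peaks that overlap CREST. The share of peaks from 650 to 1100 bp was 6.26 points higher on CREST-free scaffolds than among the CENP-A peaks of scaffolds with CREST that overlap none. It was 5.27 points higher from 600 bp and 9.61 points at 10 Mb or more, and reversed to -2.42 points at 1 to 10 Mb.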
